A study of Mus musculus with 6 samples.

Results

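The proteasome and the MHC class I presentation pathway were followed across 6 RNA libraries of mouse aorta. The members were all genes in the deposited table with a symbol of Psma, Psmb, Psmc, Psmd or Psme followed by digits, all genes with a symbol starting with H2-, and *B2m*, *Tap1*, *Tap2*, *Tapbp*, *Calr*, *Canx*, *Pdia3* and *Erap1*. This gave 86 of the 18191 genes listed, of which 43 were proteasome genes, 35 had an H2- symbol and 8 were other presentation genes. RNA of whole aortas was sequenced from male mice as 3 wild-type (WT) and 3 *Npr1*+/- libraries, each with a number from 1 to 3 in its label. *Npr1*+/- mice carry a disrupted copy of *Npr1*, the gene of a natriuretic peptide receptor, made with CRISPR-Cas9, and keep the other copy. The disruption is heritable and not limited to a cell type. The strain, the age and the number of animals behind a library were not given in the sources used here. The p-values therefore measure the spread between these libraries, which may be technical.

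The proteasome is the barrel-shaped protease that degrades proteins marked with ubiquitin. Its 20S core is built of rings of alpha and beta subunits, and the beta subunits *Psmb5*, *Psmb6* and *Psmb7* cut the peptide chains. Under interferon they are exchanged for *Psmb8*, *Psmb9* and *Psmb10*, the catalytic subunits of the immunoproteasome. The 19S cap unfolds proteins with its ATPases. Peptides from the core are pumped into the endoplasmic reticulum by *Tap1* and *Tap2* and loaded onto MHC class I molecules, each a heavy chain with the light chain *B2m*, which show them to CD8 T cells. In the vessel wall, endothelial and smooth muscle cells carry class I molecules, while class II molecules are mostly found on leukocytes.

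The estimated counts summed to between 13510970 and 16664343 per library. *Npr1* itself, as a check of the labels, had 453, 611 and 633 normalized CPM (counts scaled to a common library size) over WT 1 to 3 and 295, 452 and 527 over *Npr1*+/- 1 to 3. Its groups overlapped, and each *Npr1*+/- library was below the WT library of the same number, at 65.2%, 73.9% and 83.2%. The libraries numbered 1 stood apart from the others of their genotype, with high white fat markers and low smooth muscle markers. *Npr1*+/- 1 also had summed neuron markers of 421 normalized CPM, against 77.6 to 96.9 in the other 5 libraries. The main levels below are therefore given by library, and the group medians also without number 1.

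No member was called between the genotypes. A call required the adjusted p to be under 0.05 with a log2 fold change of 0.5 or more in either direction. By the quasi-likelihood test of edgeR, adjusted by Benjamini-Hochberg over all genes, 0 of the 72 members tested were called, and 0 of all 13938 genes (0%). The smallest adjusted p of a member was 0.999. The differences were small and mostly positive. The log2 fold change, given throughout as *Npr1*+/- over WT, was positive for 67 of 72 members (93.1%), against 51.6% of all genes tested. The median was 0.14 for the members and 0.01 for all genes tested. Among the groups, the median was 0.39 for the class I heavy chains, 0.27 for class II chains, 0.13 for the proteasome and 0.09 for the peptide loading genes. In whole tissue, more cells of a type and more RNA per cell cannot be told apart, nor can fewer cells and less RNA per cell.

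At an unadjusted p under 0.05, 1 member was higher in *Npr1*+/- aortas, *H2-Q4*, which is 1.39% of the members tested against 1.88% of all genes. In the other direction there were 0 members, against 1.08% of all genes. DESeq2 also called 0 members, and 16 of the 18033 genes it tested (0.0887%), and 0 members had an unadjusted p under 0.05 there. With the replicate number as a block, which compares the libraries of the same number, edgeR again called 0 members and 0% of all genes. At an unadjusted p under 0.05, 11 of 72 members were then higher (15.3%, against 7.36% of all genes) and 0 lower (against 5.09%). These 11 were *H2-K1*, *H2-D1*, *H2-Q4*, *H2-T23*, *H2-Q10*, *H2-M9*, *H2-Ab1*, *H2-Eb1*, *Psmb8*, *Psmb9* and *Psmd14*, and their smallest adjusted p in this fit was 0.256. The labels do not say that libraries of the same number were matched. Only those numbered 1 were more alike, in their deviations from the genotype means, than every pair of unlike numbers.

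The values of the 3 *Npr1*+/- libraries were all above the 3 WT libraries, in normalized CPM, for 10 of 72 members (13.9%, against 3.9% of all genes), and all below for 0 members (against 3.58%). *Psmc4*, *Psmc5*, *Psmd1*, *Psmd6*, *Psmd12*, *H2-Q4*, *H2-T23*, *H2-M3*, *H2-T10* and *H2-T-ps* formed the former group. When each *Npr1*+/- library was set against the WT library of the same number, 39 members (54.2%) were higher in all 3 pairs, against 17.5% of all genes. They included 22 of 42 proteasome genes, 12 of 16 class I heavy chains, 2 of 5 class II chains, 2 of 7 peptide loading genes and *B2m*. *H2-T-ps*, whose symbol marks a pseudogene, is counted among the class I heavy chains throughout. Only *Erap1* (1.39% of members, against 16.9% of all genes) was lower in all 3 pairs. Subunits of a complex vary together between libraries, so these counts are not independent of each other.

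Without number 1 of both genotypes, in a comparison of 2 against 2 libraries, 5 members were higher at an unadjusted p under 0.05 and 1 was lower in edgeR, and 0 were called. The higher members were *H2-K1*, *B2m*, *Psmb8*, *Psme4* and *H2-Q9*, and the lower was *H2-DMb1*. The log2 fold change of *H2-DMb1* went from -0.18 to -0.53 and that of *Psme4* from 0.16 to 0.30. That of *H2-Q9*, which was listed at 0 in 1 of the remaining libraries, went from 1.00 to 2.71. *H2-T23* went from 0.36 to 0.22 and *Psmb5* from 0.24 to 0.13.

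**Figure D1:**
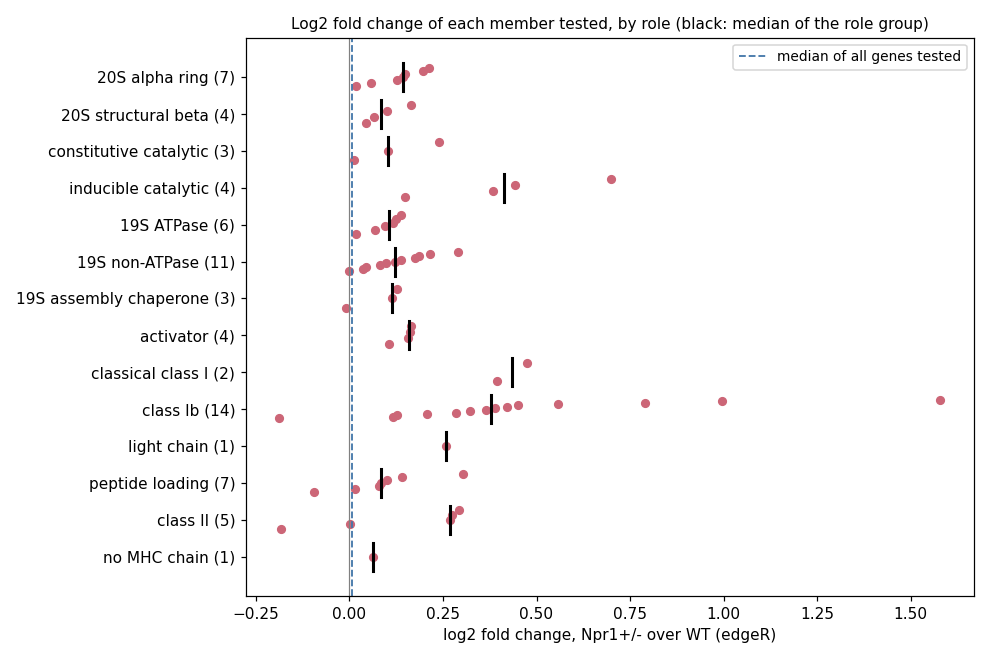
Log2 fold change of *Npr1*+/- over WT (horizontal axis) for the 72 members tested, 1 point a gene, in rows by role with the number of genes in brackets. Black lines mark the median of each row and the dashed line the median of all genes tested, 0.01. The row of 4 inducible catalytic subunits, *Psmb11* included (median 0.41), and the class I rows sit to the right of the other proteasome rows.

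*H2-K1* and *H2-D1*, the classical heavy chains that present peptides to CD8 T cells, were by far the most abundant class I chains in the aorta. *H2-K1* (NCBI gene 14972, chromosome 17 of GRCm38 from 33996012 to 34000619) had an FPKM, which scales counts by transcript length and library size, of 199, 126 and 121 over WT 1 to 3 and of 276, 184 and 150 over *Npr1*+/- 1 to 3. *H2-D1* (NCBI gene 14964, chromosome 17 from 35263094 to 35267497) had 268, 184 and 188 FPKM in WT and 369, 246 and 214 in *Npr1*+/- aortas. Both libraries numbered 1 were the highest of their genotype for both genes, and the genotypes overlapped because WT 1 lay above 2 of the *Npr1*+/- libraries. The mean FPKM of *H2-K1* was 149 ± 43.3 in WT against 204 ± 65.1 (SD, n = 3) in *Npr1*+/- aortas. Its log2 fold change was 0.47 (standard error, SE, 0.31, unadjusted p = 0.174 and adjusted p = 0.999 in edgeR). With the replicate block it was 0.45 with an unadjusted p of 0.0138 and an adjusted p of 0.265. Within the library numbers 1, 2 and 3, *H2-K1* stood at 145%, 150% and 118% of WT in normalized CPM. *H2-D1* had a log2 fold change of 0.39 (SE 0.29) and stood at 144%, 138% and 108% of WT within the numbers.

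*B2m*, the light chain shared by all class I molecules, was the most abundant member. Its FPKM was 933, 631 and 647 over WT 1 to 3 and 995, 859 and 763 over *Npr1*+/- 1 to 3. WT 1 exceeded *Npr1*+/- 2 and 3, so the groups overlapped. The means were 737 ± 170 and 873 ± 117 FPKM (SD, n = 3), with a log2 fold change of 0.26 (SE 0.25, unadjusted p = 0.33 in edgeR). The *B2m* level in normalized CPM was 111%, 141% and 112% of the WT library of the same number.

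**Figure D2:**
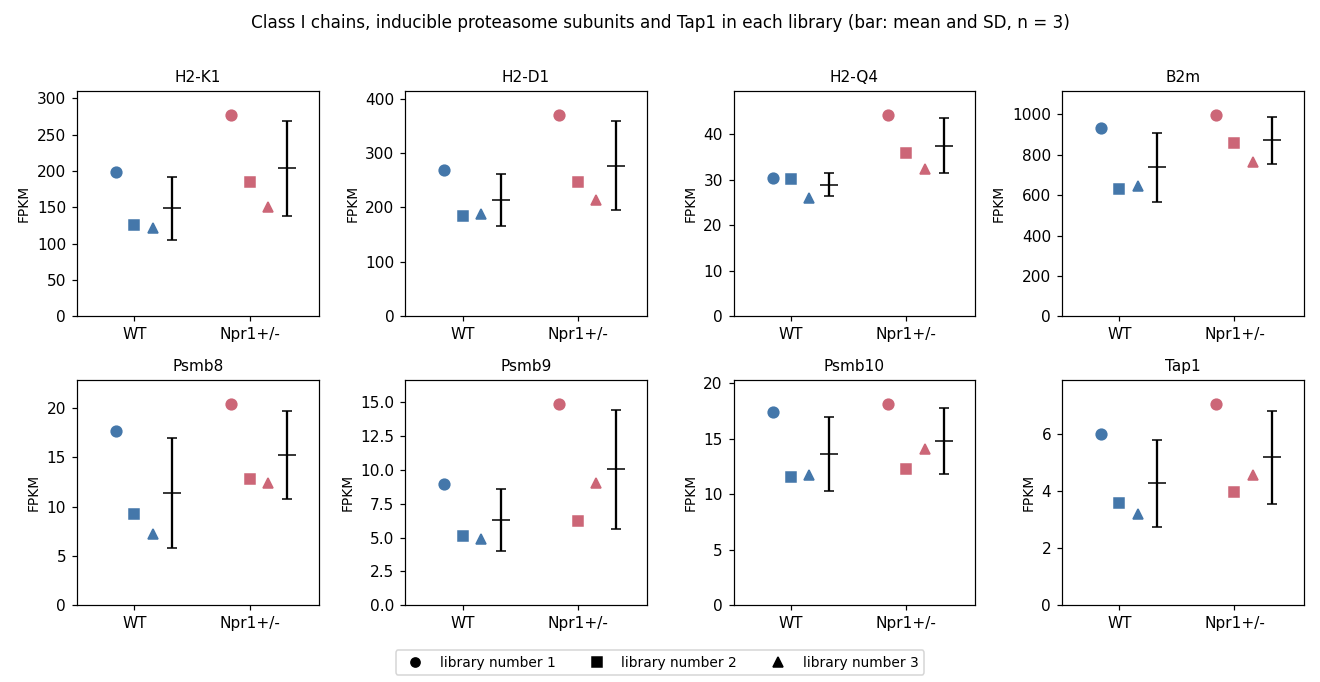
FPKM (vertical axes, starting at 0) of 8 members in each of the 3 WT and 3 *Npr1*+/- libraries, with the library number as the symbol, and the mean and SD of each genotype as a bar. In all 8 genes the library numbered 1 is the highest of its genotype, and among the 8 only *H2-Q4* has every *Npr1*+/- library above every WT library.

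The promoters of *H2-K1*, *H2-D1*, *H2-Q4* and *B2m* are shown, and all 4 genes were higher within every library number. These promoters are RefSeq windows of 300 bases, from 250 before to 50 after an annotated start on GRCm38.p6. The reference strain is C57BL/6J, and the class I region differs between strains. Matches on either strand are in capitals: GGGANTNCC (a kappaB-type site, where N is any base), AANTGAAA (an interferon-type element) and CCAAT, a box named after its letters. The last motif searched was TATAAA, as found upstream of many start sites. None of the matches printed overlaps another. For *H2-K1*, RefSeq lists 2 starts, and the window of the second (chr17:34000284-34000583, minus strand) is shown. The others lie at chr17:35262844-35263143 (*H2-D1*, plus strand), chr17:35379367-35379666 (*H2-Q4*, plus strand) and chr2:122147437-122147736 (*B2m*, plus strand).
H2-K1: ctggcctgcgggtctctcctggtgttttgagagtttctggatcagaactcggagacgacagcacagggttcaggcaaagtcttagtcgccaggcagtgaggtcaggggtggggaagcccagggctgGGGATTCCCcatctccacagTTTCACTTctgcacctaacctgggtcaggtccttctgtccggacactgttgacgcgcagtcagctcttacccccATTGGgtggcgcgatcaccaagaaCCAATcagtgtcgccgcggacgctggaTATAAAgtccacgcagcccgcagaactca
H2-D1: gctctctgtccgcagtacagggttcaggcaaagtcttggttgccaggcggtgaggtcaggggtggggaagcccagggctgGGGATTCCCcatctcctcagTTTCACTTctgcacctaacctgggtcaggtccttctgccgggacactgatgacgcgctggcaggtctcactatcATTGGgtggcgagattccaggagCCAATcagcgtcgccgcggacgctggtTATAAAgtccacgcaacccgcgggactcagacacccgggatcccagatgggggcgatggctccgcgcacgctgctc
H2-Q4: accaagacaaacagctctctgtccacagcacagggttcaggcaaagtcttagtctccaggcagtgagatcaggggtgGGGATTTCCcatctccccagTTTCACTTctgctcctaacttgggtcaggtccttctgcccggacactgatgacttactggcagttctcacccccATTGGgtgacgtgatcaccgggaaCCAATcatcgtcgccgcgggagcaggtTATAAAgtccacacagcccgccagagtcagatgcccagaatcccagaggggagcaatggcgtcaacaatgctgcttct
B2m: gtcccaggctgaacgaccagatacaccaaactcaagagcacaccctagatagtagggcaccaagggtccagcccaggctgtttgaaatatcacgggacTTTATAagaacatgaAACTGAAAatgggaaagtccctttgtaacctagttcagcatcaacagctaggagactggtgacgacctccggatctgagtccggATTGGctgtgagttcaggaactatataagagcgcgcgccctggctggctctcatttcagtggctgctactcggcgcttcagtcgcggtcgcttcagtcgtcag
The 3 heavy chain windows hold the same 5 matches in the same order, read from the 5′ end: the kappaB-type site, the interferon-type element, CCAAT on the minus and then on the plus strand of the window, and TATAAA. In the *H2-D1* and *H2-Q4* windows TATAAA lies upstream of the annotated start, but in the *H2-K1* window shown it lies downstream. The *B2m* window holds TATAAA (minus strand, upstream of the start), the interferon-type element and 1 CCAAT match, and no GGGANTNCC. This pattern does not cover every kappaB-type site, and the stretch ggaaagtccc of the *B2m* window was not matched by it. Windows were available for 70 of 86 members. GGGANTNCC was found in 6 of 18 class I heavy chain windows, in 0 of 36 proteasome windows and in 4.57% of the windows of all 27025 genes. AANTGAAA was found in 9 of 18 class I, 5 of 36 proteasome and 0 of 8 class II windows, against 7.54% of all. CCAAT was in 15 of 18 class I and 8 of 8 class II windows, against 41.1% of all, and TATAAA in 10 of 18 class I windows, against 15.7%. Several class I genes are recent copies of each other, so their windows are not independent. A match describes letters and not binding.

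The class Ib genes, relatives of the classical heavy chains with narrower roles, counted 23 members, of which 14 were tested. *H2-Q4*, a class Ib gene of the Q region (NCBI gene 15015, chromosome 17 from 35379617 to 35384674), had the highest mean over the 6 libraries, ahead of *H2-T22*, which was slightly higher in WT (30.7 against 28.9 FPKM). *H2-Q4* had 30.4, 30.3 and 26.1 FPKM over WT 1 to 3 and 44.2, 35.9 and 32.4 over *Npr1*+/- 1 to 3. All 3 *Npr1*+/- libraries lay above all WT libraries. Its means were 28.9 ± 2.47 and 37.5 ± 6.08 FPKM (SD, n = 3), and the log2 fold change was 0.39 (SE 0.16, unadjusted p = 0.0488 and adjusted p = 0.999 in edgeR). With the replicate block its unadjusted p was 0.0143 and its adjusted p 0.268.

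*H2-T23*, which encodes Qa-1, the chain that NK cells read through CD94 and NKG2A, was next among the genes whose groups did not overlap. In FPKM it had 29.2, 31.0 and 22.4 in WT and 42.5, 30.5 and 32.2 in *Npr1*+/- aortas, so on this scale WT 2 lay above *Npr1*+/- 2. In normalized CPM the same pair stood at 101%, and the numbers 1 and 3 at 152% and 137%. The log2 fold change of *H2-T23* was 0.36 (SE 0.19, unadjusted p = 0.0975 in edgeR). *H2-M3*, which presents formylated peptides of bacteria and mitochondria, had 3.30, 3.40 and 3.19 FPKM in WT and 3.67, 3.62 and 4.67 in *Npr1*+/- aortas, with a log2 fold change of 0.28 (SE 0.20). *H2-T10* and *H2-T-ps* were low, at 1.68 ± 0.0153 and 1.56 ± 0.111 FPKM (SD, n = 3) in *Npr1*+/- aortas against 1.56 ± 0.0208 and 1.23 ± 0.318 in WT. On the FPKM scale, WT 2 of *H2-T-ps* lay above *Npr1*+/- 2.

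*H2-Q10*, which encodes a secreted class I chain, ranged from 5.05 to 20.4 FPKM in WT and from 10.5 to 37.0 in *Npr1*+/- aortas, and both libraries numbered 1 were the highest of their genotype. *H2-M9* had the largest log2 fold change of the members, 1.58 (SE 0.83), on 3 to 37 counts per library. *H2-T18* was the lowest of the tested class Ib genes, at 0.413 ± 0.0833 FPKM in WT and 0.54 ± 0.139 in *Npr1*+/- aortas (SD, n = 3). *H2-Q6* to *H2-Q9* are near-identical copies between which RSEM divides shared reads, and their single values are uncertain. *H2-Q8* was listed at 0 in WT 2, *Npr1*+/- 2 and *Npr1*+/- 3, and *H2-Q9* at 0 in WT 3. The 4 genes summed to 19.5, 11.8 and 13.3 normalized CPM over WT 1 to 3 and to 33.7, 19.3 and 12.4 over *Npr1*+/- 1 to 3. *H2-K1* and *H2-D1* also share sequence with the Q genes, but carried 74.4% to 77.7% of the summed class I counts in each library.

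Summed over the class I heavy chains, the libraries had 1011, 696 and 704 normalized CPM over WT 1 to 3 and 1464, 953 and 804 over *Npr1*+/- 1 to 3. The *Npr1*+/- libraries were at 145%, 137% and 114% of the WT library of the same number, and WT 1 lay above *Npr1*+/- 2 and 3. The median log2 fold change of the 16 chains tested was 0.39, and 0.16 without *Npr1*+/- 1. Without number 1 of both genotypes it was 0.31. The spread was wide beside these values, with a median SD between libraries of a genotype of 0.40 on the log2 scale, against 0.27 for all genes.

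*Psmb9* and *Psmb8* had the largest log2 fold changes of the proteasome genes tested, while that of *Psmb10* was within the range of the constitutive subunits. *Psmb8* and *Psmb9* lie with *Tap1* and *Tap2* in the class II region of chromosome 17, while *Psmb10* lies on chromosome 8. *Psmb8*, the chymotrypsin-like subunit of the immunoproteasome, had 17.7, 9.26 and 7.22 FPKM over WT 1 to 3 and 20.4, 12.8 and 12.4 over *Npr1*+/- 1 to 3. WT 1 was the second highest of the 6 libraries, and the groups overlapped. Its log2 fold change was 0.44 (SE 0.38, unadjusted p = 0.28 in edgeR), and with the replicate block 0.49 with an unadjusted p of 0.013 and an adjusted p of 0.262. *Psmb9*, which takes the place of *Psmb6*, had 8.97, 5.14 and 4.88 FPKM in WT and 14.9, 6.26 and 9.07 in *Npr1*+/- aortas. *Npr1*+/- 1 was well above the rest, and WT 1 was close to *Npr1*+/- 3. The log2 fold change of *Psmb9* was 0.70 (SE 0.40, unadjusted p = 0.124 in edgeR), and with the replicate block 0.66 with an unadjusted p of 0.0163 and an adjusted p of 0.28. *Psmb10*, which takes the place of *Psmb7*, had 17.5, 11.6 and 11.8 FPKM in WT and 18.1, 12.2 and 14.1 in *Npr1*+/- aortas, with a log2 fold change of 0.15 (SE 0.24). Within every number these 3 genes stood above WT, at 109% to 175%. *Psmb11*, the thymus-specific subunit, was low at 0.84 ± 0.226 FPKM in WT and 1.08 ± 0.369 in *Npr1*+/- aortas (SD, n = 3).

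Because these subunits replace the constitutive ones, their ratio was taken in each library on the FPKM scale. The constitutive subunits were far more abundant. *Psmb5* had 76.8, 57.0 and 60.6 FPKM in WT and 96.4, 69.4 and 60.7 in *Npr1*+/- aortas, and *Psmb6* had 106 ± 7.88 and 106 ± 6.1 (SD, n = 3). *Psmb7* had 80.6 ± 16.6 in WT and 85.8 ± 18.1 in *Npr1*+/- aortas. The summed inducible subunits were 15.2%, 11.4% and 10.1% of the summed constitutive subunits over WT 1 to 3, and 17.6%, 12.3% and 14.5% over *Npr1*+/- 1 to 3. The means were 12.2% ± 2.65 and 14.8% ± 2.69 (SD, n = 3), and the groups overlapped. *Psmb8* over *Psmb5* was 23.1%, 16.3% and 11.9% in WT and 21.1%, 18.5% and 20.5% in *Npr1*+/- aortas, so that the order of the genotypes turned between number 1 and the other numbers. *Psmb9* over *Psmb6* was 7.83%, 4.89% and 4.93% in WT and 15.0%, 5.74% and 8.20% in *Npr1*+/- aortas, higher within each number. *Psmb10* over *Psmb7* was 16.8% ± 1.25 in WT and 17.3% ± 1.5 in *Npr1*+/- aortas (SD, n = 3).

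The remaining subunits of the 20S core and the 19S cap were abundant and differed little. *Psmb3*, a structural beta subunit, was the highest proteasome gene, at 129 ± 17.2 FPKM in WT and 137 ± 15.6 in *Npr1*+/- aortas (SD, n = 3). The 7 alpha ring genes tested had log2 fold changes from 0.02 to 0.21, with the highest for *Psma1* (0.21, SE 0.16, unadjusted p = 0.242 in edgeR). *Psma1* had 75.2, 59.3 and 60.2 FPKM in WT and 85.4, 68.9 and 69.0 in *Npr1*+/- aortas, with WT 1 above *Npr1*+/- 2 and 3. Among the structural beta subunits the range was 0.04 to 0.16, with *Psmb2* at the upper end (75.3 ± 8.3 and 83.2 ± 11.6 FPKM, SD, n = 3). The median SD between libraries of a genotype was 0.14 on the log2 scale over all proteasome genes, about that of their median log2 fold change.

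The 19S cap held the proteasome genes whose genotypes did not overlap. The log2 fold changes of its 6 ATPases, *Psmc1* to *Psmc6*, lay between 0.02 and 0.14. *Psmc4* had 65.3, 59.8 and 61.6 FPKM in WT and 67.4, 63.8 and 73.0 in *Npr1*+/- aortas, with a log2 fold change of 0.14 (SE 0.12). *Npr1*+/- 2 was below WT 1 in FPKM and level with it in normalized CPM (91.748 against 91.746), so the groups of *Psmc4* were hardly apart. Its pairs stood at 108%, 110% and 112%. *Psmc5* stood at 107%, 114% and 107%. *Psmd12*, a scaffold subunit of the lid, was the proteasome gene of smallest unadjusted p. It had 33.4, 32.1 and 33.3 FPKM in WT and 37.8, 38.2 and 37.9 in *Npr1*+/- aortas. The 3 libraries of each genotype lay close together, and the means were 33 ± 0.755 and 38 ± 0.229 FPKM (SD, n = 3). Its log2 fold change was 0.22 (SE 0.11, unadjusted p = 0.0853 and adjusted p = 0.999 in edgeR).

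*Psmd6*, another scaffold subunit of the lid, had 37.6, 42.9 and 40.0 FPKM in WT and 43.9, 44.4 and 47.7 in *Npr1*+/- aortas, with a log2 fold change of 0.19 (SE 0.11). *Psmd1*, a large scaffold of the base, had 40.2 ± 0.829 FPKM in WT and 42.6 ± 0.484 in *Npr1*+/- aortas (SD, n = 3). *Psmd14*, the deubiquitinase of the lid, had 27.9, 21.1 and 21.3 FPKM in WT and 33.8, 26.8 and 24.2 in *Npr1*+/- aortas, where WT 1 was above *Npr1*+/- 2 and 3. Its log2 fold change was 0.29 (SE 0.19, unadjusted p = 0.174 in edgeR), and the unadjusted p was 0.0422 with the replicate block (adjusted p = 0.378). The 19S assembly chaperones were the lowest of the cap genes, with *Psmd9* at 6.91 ± 0.237 and 7.48 ± 0.842 FPKM and *Psmd5* at 17.5 ± 1.65 and 17.5 ± 0.847 (SD, n = 3). *Psme1* and *Psme2*, the interferon-inducible activator that opens the 20S core, had 68.5 ± 15.6 and 62.2 ± 14.6 FPKM in WT and 72.9 ± 6.06 and 68.6 ± 12.7 in *Npr1*+/- aortas (SD, n = 3). Their log2 fold changes were 0.11 and 0.16, and that of *Psme4*, a nuclear activator, was 0.16 (SE 0.13).

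**Figure D3:**
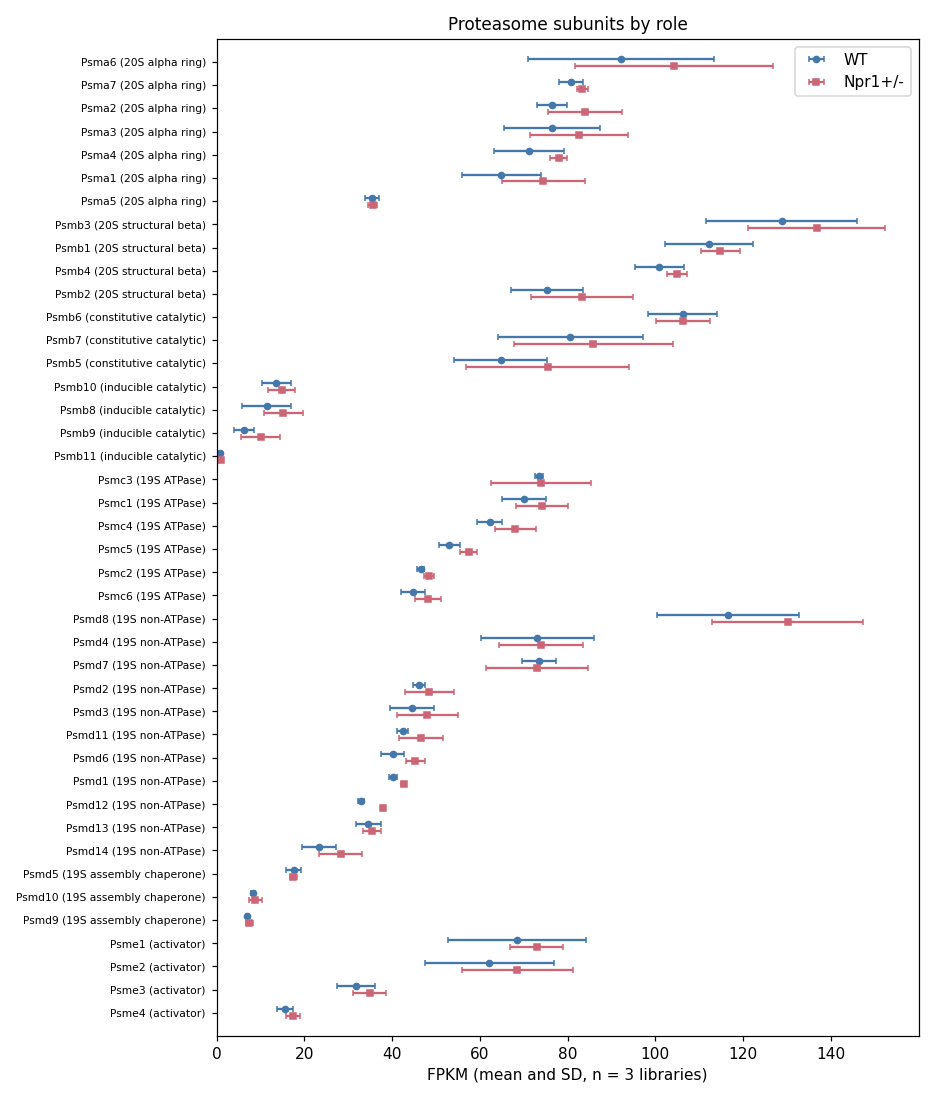
Mean FPKM with SD (n = 3 libraries, horizontal axis from 0) of the 42 proteasome genes tested in WT (circles) and *Npr1*+/- (squares), in rows grouped by role. *Psmb3* is the highest row and *Psmb11* the lowest, and the error bars of *Psmd12* are narrow and apart.

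Summed over the family, proteasome genes had 3403, 2942 and 3077 normalized CPM over WT 1 to 3 and 3716, 3286 and 3202 over *Npr1*+/- 1 to 3. WT 1 was above 2 of the *Npr1*+/- libraries. Within the numbers the sums were at 109%, 112% and 104% of WT. The median log2 fold change of the 42 genes was 0.13, and 40 were positive. Without *Npr1*+/- 1 the median was 0.03, and without number 1 of both genotypes 0.10.

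Of the 7 peptide loading genes, the log2 fold change was positive for 6, with a median of 0.09. In all 3 pairs, 2 were higher (28.6%, against 17.5% of all genes). *Tap1*, a subunit of the peptide transporter, had 6.0, 3.57 and 3.20 FPKM over WT 1 to 3 and 7.02, 3.94 and 4.55 over *Npr1*+/- 1 to 3, with a log2 fold change of 0.30 (SE 0.33, unadjusted p = 0.386 in edgeR). It stood at 123%, 114% and 135% of WT within the numbers. *Tap1* and *Psmb9* are transcribed away from each other from a shared promoter, and their RefSeq windows have 275 bases in common. The window of *Tap1* (chr17:34187306-34187605, plus strand) is shown because both genes were higher within every library number, and has 1 match, to CCAAT.
Tap1: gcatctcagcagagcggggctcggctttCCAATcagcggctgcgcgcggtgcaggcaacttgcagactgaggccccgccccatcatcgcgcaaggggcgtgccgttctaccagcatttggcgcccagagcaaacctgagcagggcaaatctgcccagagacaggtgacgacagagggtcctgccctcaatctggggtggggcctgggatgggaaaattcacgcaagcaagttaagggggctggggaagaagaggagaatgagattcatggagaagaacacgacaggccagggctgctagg
*Tap2*, the other subunit of the transporter, had 15.9, 14.8 and 15.2 FPKM in WT and 21.9, 12.9 and 14.0 in *Npr1*+/- aortas. *Npr1*+/- 1 was the highest library and *Npr1*+/- 2 and 3 the lowest, and the log2 fold change of *Tap2* turned from 0.10 to -0.21 without *Npr1*+/- 1. *Tapbp*, which holds the empty class I molecule at the transporter, had 62.2 ± 3.2 FPKM in WT and 68 ± 8.13 in *Npr1*+/- aortas (SD, n = 3). *Calr*, the lectin chaperone calreticulin, was the most abundant of the group at 373 ± 17.9 and 375 ± 49.7 FPKM, followed by *Pdia3*, its partner oxidoreductase, at 154 ± 4.95 and 163 ± 29.9 (SD, n = 3). *Canx*, the membrane-bound lectin chaperone, had 67 ± 2.84 and 70.4 ± 5.42 FPKM (SD, n = 3). *Erap1*, which trims peptides inside the endoplasmic reticulum, had 10.1, 9.30 and 10.04 FPKM in WT and 9.58, 9.21 and 8.80 in *Npr1*+/- aortas. Its log2 fold change was -0.09 (SE 0.11), and it was at 99.5%, 99.2% and 83.3% of WT within the numbers.

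**Figure D4:**
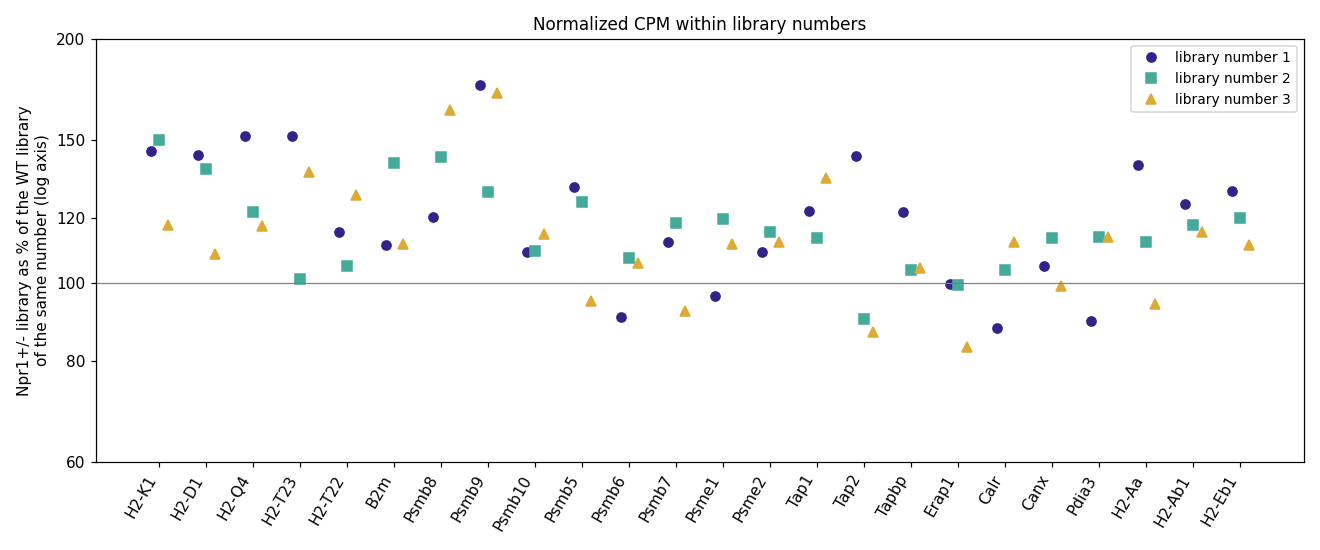
Normalized CPM of 24 members in each *Npr1*+/- library as a percentage of its same-numbered WT library (vertical log axis, line at 100%), with 1 symbol per library number. The classical class I chains, *H2-Q4*, *H2-T23*, *Psmb8*, *Psmb9* and *Psmb10* lie above the line in all 3 numbers, while *Erap1* lies below it and *Tap2*, *Psmb6* and *Calr* fall on both sides.

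The class II chains, which present peptides to CD4 T cells, came into the set through their H2- symbols and followed the library number more than the genotype. *H2-Aa* had 59.2, 37.6 and 29.9 FPKM over WT 1 to 3 and 79.1, 40.9 and 29.7 over *Npr1*+/- 1 to 3. *H2-Ab1* had 45.3, 27.2 and 20.6 in WT and 54.2, 31.0 and 25.1 in *Npr1*+/- aortas. *H2-Eb1* had 27.9, 17.5 and 14.5 in WT and 34.6, 20.4 and 16.98 in *Npr1*+/- aortas. In each gene WT 1 was above *Npr1*+/- 2 and 3. The log2 fold changes were 0.27, 0.27 and 0.29, with SEs of 0.42, 0.39 and 0.35. The median of the 5 class II chains tested was 0.27, -0.16 without *Npr1*+/- 1, and 0.06 without number 1 of both genotypes. Over these chains, libraries numbered 1 were above the others of their genotype by a median of 0.86 on the log2 scale, against 0.48 for class I, 0.69 for the inducible catalytic subunits with *Psmb11*, 0.18 for the proteasome and -0.02 for all genes. These medians also exceeded the median log2 fold change of class I (0.39), the inducible subunits (0.41) and the proteasome (0.13). That did not hold for the peptide loading genes (0.05 against 0.09). *H2-DMb1*, a chain of the peptide editor of class II, had 7.86, 8.39 and 7.28 FPKM in WT and 9.52, 5.87 and 5.08 in *Npr1*+/- aortas. *H2-Ke6* encodes a steroid dehydrogenase and no MHC chain, and had 55.1 ± 17.6 and 56.7 ± 13.8 FPKM (SD, n = 3).

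Of the 86 members, 14 had too few counts to be tested. Their counts over all 6 libraries were 29 for *Psma8*, the testis-specific alpha subunit, 34 for *H2-DMb2*, 16 for *H2-Eb2*, 13 for *H2-Oa* and 37 for *H2-Ob* among the class II genes, and 2 to 41 for the class Ib genes *H2-Bl*, *H2-M1*, *H2-M2*, *H2-M5*, *H2-M10.4*, *H2-M11*, *H2-Q1*, *H2-Q2* and *H2-T3*. For 4 members every library was under 3 counts.

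Of 64 regulators and neighbours of the pathway, all were tested and 0 were called, with 0 at an unadjusted p under 0.05. With the replicate block, 4 were higher and 1 lower at an unadjusted p under 0.05, shares below the 7.36% and 5.09% of all genes. The higher genes were *Cd1d1*, *Nlrc5*, *Ifnar2* and *Igtp*, and the lower was *Rfx5*. *Cd1d1*, another antigen presentation gene, had a log2 fold change of 0.61 (SE 0.71, unadjusted p = 0.419 in edgeR). With the block it was 0.71 (unadjusted p = 0.00156, adjusted p = 0.137), and the pairs stood at 138%, 213% and 152%. Of the 25 regulators, 6 were higher and 6 lower in all 3 pairs, against 17.5% and 16.9% of all genes. Their log2 fold change was positive for 13, and its median was 0.01, the same as for all genes. *Nlrc5*, the activator of class I genes, had 1.45, 0.81 and 0.61 FPKM over WT 1 to 3 and 2.32, 0.88 and 1.19 over *Npr1*+/- 1 to 3. Its log2 fold change was 0.66 (SE 0.47, unadjusted p = 0.209 in edgeR) and its unadjusted p with the replicate block was 0.0206 (adjusted p = 0.305). *Nlrc5* was thus higher in each number, at 168%, 114% and 187% of WT, as were 54.2% of the members and 17.5% of all genes. A link between *Nlrc5* and the class I genes was not tested. *Irf1*, an interferon-induced factor of the same genes, stood at 133%, 113% and 116%, with a log2 fold change of 0.29 (SE 0.21). *Rfx5*, a DNA-binding partner of *Nlrc5* and *Ciita*, went the other way, with 5.91, 7.27 and 6.87 FPKM in WT and 3.58, 5.21 and 6.22 in *Npr1*+/- aortas. The log2 fold change of *Rfx5* was -0.39 (SE 0.20, unadjusted p = 0.0953 in edgeR, and 0.0153 with the replicate block, where the adjusted p was 0.275). *Ciita*, the activator of class II genes, was low, at 0.3 ± 0.0889 and 0.287 ± 0.202 FPKM, and *Cd74*, the invariant chain, had 111 ± 45.0 and 118 ± 53.4 (SD, n = 3). On the side of the proteasome, *Nfe2l1*, the factor that raises proteasome genes when the protease is short, had 88.3 ± 8.55 and 89.7 ± 13.2 FPKM. *Pomp*, an assembly factor of the 20S core, had 76.6 ± 1.98 and 86.9 ± 6.5, and *Adrm1*, a ubiquitin receptor of the cap, 66.2 ± 3.16 and 79.9 ± 10.2 (SD, n = 3). Of 10 interferon-induced genes outside the pathway, 3 were higher in all 3 pairs and 0 lower (against 17.5% and 16.9% of all genes), with a median log2 fold change of 0.19.

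Markers of other cells in the tissue also differed between the libraries, and not all in the same way. The 5 defining markers of smooth muscle summed to at least 11707 normalized CPM in every library, as the tissue label asks. They were 19184, 32496 and 35098 over WT 1 to 3 and 11707, 31155 and 31986 over *Npr1*+/- 1 to 3, lowest in the libraries numbered 1, where class I and class II chains were highest. White fat markers summed to 5229, 1020 and 1359 in WT and to 8558, 2738 and 2229 in *Npr1*+/- aortas. Within each number the *Npr1*+/- library had more of them, as it had more of *H2-K1*, *H2-D1*, *Psmb8* and *Psmb9*. With the replicate block, 4 of 5 were higher at an unadjusted p under 0.05, against 7.36% of all genes. Brown fat markers were 447 to 3019 in WT and 848 to 2946 in *Npr1*+/- aortas. Endothelial markers summed to 413 to 749 in WT and to 768 to 1183 in *Npr1*+/- aortas. The groups were hardly apart, with WT 3 at 749 and *Npr1*+/- 3 at 768. All 5 log2 fold changes were positive, with a median of 0.61. Of the 5 markers, 1 was higher at an unadjusted p under 0.05 in edgeR (against 1.88% of all genes). With the block there were 3 (against 7.36% of all genes), and 2 were higher in all 3 pairs (against 17.5%).

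Pan-leukocyte markers summed to 36.9 to 87.8 normalized CPM in WT and to 40.9 to 83.4 in *Npr1*+/- aortas, highest in number 1 of both genotypes, and 0 of 5 passed an unadjusted p of 0.05 in either fit. Macrophage markers gave 97.0 to 225 and 117 to 168, with 0 of 5 log2 fold changes positive. Dendritic cell markers gave 30.9 to 35.7 and 35.3 to 41.5, with 3 of 5 positive. Of these 5, 1 was higher at an unadjusted p under 0.05 in edgeR (against 1.88% of all genes), and 1 with the block (against 7.36%). In all 3 pairs, 3 were higher and 1 was lower, against 17.5% and 16.9% of all genes. T cell markers summed to no more than 2.55 in WT and 3.42 in *Npr1*+/- aortas, and B cell markers to 2.26 and 4.42, with *Cd79b* at 0 in at least 1 library. Neutrophil markers gave 5.99 to 24.9 and 8.23 to 15.3, with *S100a8*, *S100a9*, *Ly6g* and *Retnlg* each at 0 in at least 1 library. Fibroblast markers gave 1487 to 2384 and 1621 to 2003, and heart muscle markers 66.7 to 72.9 and 43.5 to 63.8. Schwann cell markers were at 236 in *Npr1*+/- 1 against 44.2 to 71.1 in the other 5 libraries. The part of these cells in the class I, immunoproteasome and class II values was not tested.

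**Figure D5:**
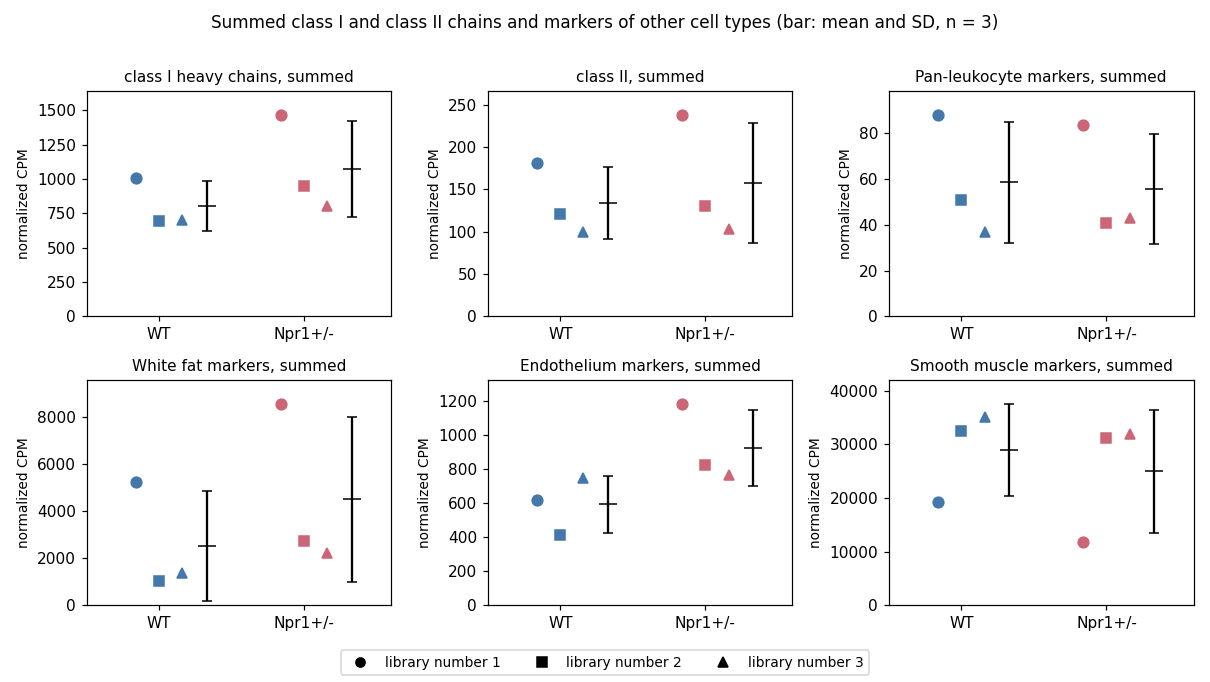
Summed normalized CPM (vertical axes, starting at 0) of the class I heavy chains, the class II chains and the markers of 4 cell groups in each of the 3 WT and 3 *Npr1*+/- libraries, with the mean and SD as a bar. The libraries numbered 1 (circles) are highest for class I, class II, pan-leukocyte and white fat markers and lowest for smooth muscle markers in both genotypes.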

How the data were processed

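RNA of whole aortas of male mice was analysed in 3 WT and 3 *Npr1*+/- libraries, grouped and numbered by the sample labels. The authors filtered reads with SOAPnuke, aligned them with Bowtie2 to coding genes and estimated expression with RSEM, and the labels' processing notes name mm10 and DESeq2 1.4.5. The authors deposited the estimated counts of RSEM, not normalized, and FPKM of the same genes, which the authors scaled by transcript length and library size. The authors' averages of each genotype were not used, and 0 per-sample columns were left unmatched. The 18191 genes carry NCBI identifiers, of which 18070 were paired with symbols.

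Estimated counts were rounded and tested with edgeR 4.0.16 in R 4.3.3 (TMM, minimum count of 10, quasi-likelihood test, Benjamini-Hochberg adjustment over 13938 genes). A call required the adjusted p to be under 0.05 with a log2 fold change of 0.5 or more in either direction. Normalized CPM used the TMM library sizes. Totals of 13510970 to 16664343 counts put 3 counts, the smallest signal considered, at 0.18 to 0.222 CPM. DESeq2 1.42.0, its size factors, no filter, limma 3.58.1 on log2(FPKM + 0.1) and log2(FPKM + 1), a replicate block and leaving out each library were alternatives. Leaving out number 1 of both genotypes and the ratios within numbers were added after seeing the data. Across genes, the deviations of same-numbered libraries from their genotype means had correlations of 0.64, 0.39 and 0.24 for the numbers 1, 2 and 3. Unlike numbers gave -0.58 to 0.44. WT 3 with *Npr1*+/- 2 gave 0.44 and WT 2 with *Npr1*+/- 3 gave 0.37, so the pairing of the numbers 2 and 3 was not borne out. The numbers come from the labels, which do not say that libraries were matched. Same-numbered libraries were treated as paired in the block. The tests were tested on simulated data.

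The members and lists were chosen with earlier results of these data known. Members were named by role, by the smallest p of each role group, by groups that do not overlap and by the highest and lowest FPKM. *H2-Q10*, *H2-M9*, *H2-DMb1*, *Psmd14*, *H2-Q6* to *H2-Q9* and, outside the members, *Cd1d1*, *Ifnar2* and *Igtp* were added to the named genes once their values were known. Promoter windows and coordinates are those of RefSeq on GRCm38.p6.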

Additional observations from a re-analysis of the deposited data

How the results depend on the processing

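No alternative called a member. Over all genes, 16 were called with DESeq2 and 1 without replicate 1 of both genotypes (*Gm14434*, not a member, named after its value was seen), against 0 otherwise. Members higher at an unadjusted p under 0.05 numbered 1, but 11 with the replicate block, 5 without replicate 1 of both genotypes and 0 with DESeq2, without a filter on low counts and with limma on either FPKM scale. Leaving out 1 library gave 0 to 3. Members lower at this p numbered 0, but 1 without replicate 1 of both genotypes, and 0 to 2 without 1 library. Members higher without overlap numbered 10, but 40 without replicate 1 of both genotypes and 10 to 35 without 1 library (35 without WT 1, 18 without *Npr1*+/- 3). Members lower without overlap numbered 0, but 1 without the filter, 3 without replicate 1 of both genotypes and 0 to 3 without 1 library. Fewer libraries make groups without overlap more frequent by construction. The replicate block changed no other call.

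The medians of the 4 groups kept their sign under every alternative except 1: without 1 library they ranged from 0.026 to 0.18 (proteasome), 0.16 to 0.47 (class I), -0.16 to 0.58 (class II, negative without *Npr1*+/- 1) and 0.0034 to 0.11 (peptide loading). Of 36 named members, 23 kept their sign throughout. Without 1 library, log2 fold changes lay in the range -0.017 to 0.39 for *Psmb5*, -0.033 to 0.061 for *Psmb6*, -0.12 to 0.26 for *Psmb7*, -0.066 to 0.36 for *Psmb10*, -0.0059 to 0.30 for *Psme1*, -0.033 to 0.36 for *Psme2*, -0.028 to 0.62 for *Tap1*, -0.21 to 0.24 for *Tap2*, -0.048 to 0.083 for *Calr*, -0.28 to 0.58 for *H2-Aa*, -0.16 to 0.64 for *H2-Ab1*, -0.11 to 0.60 for *H2-Eb1* and -0.20 to 0.34 for *H2-Ke6*. *Tap2* was at -0.18 without replicate 1 of both genotypes, *Psmb6* at -0.0018 without the filter, and *Calr* at -0.0015 with limma on either FPKM scale. The cause of these changes was not tested. Low counts limit *H2-M9*, *Psmb11* and the class Ib genes listed at 0.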
